A study of Mus musculus with 12 samples.

Results

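Ptprv, Fap, Nkx3-2, Msx1, Msx2, Prrx1, Twist1, Twist2, Runx2 and Tbx2 are 10 genes of skeletal and connective tissue biology, and they were followed here through neuron cultures that carry or lack a microexon of Daam1. They are 10 of the 33560 genes with counts in the deposited tables, found by gene symbol. The set was chosen by the measured difference between genotypes, in that Ptprv, Fap and Nkx3-2 had been seen to be low in the knockout, with further regulators of mesenchyme added, so it is given below as a description without a test. Of the 10 genes, 9 passed the filter on low counts among the 15443 genes kept for testing. Runx2 did not, with 1 to 11 counts per library.

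The 12 libraries were made from poly(A) RNA of glutamatergic neurons grown in vitro from mouse embryonic stem cells and taken at day 21. Wild-type neurons (cell line label Daam1-MIC_WT, here WT) and neurons whose Daam1 microexon was deleted (Daam1-MIC_KO, here KO) received either water as vehicle or 10 µM Y-27632, an inhibitor of the kinase ROCK, for 2 h, which gives 4 groups of 3. In each genotype the titles number the libraries 1 to 3, and a number was read as a cell line with 1 vehicle and 1 inhibitor library. The titles do not say whether a number stands for a separate line or only for a replicate. How lines were derived is not given in the sources used here, so p-values measure the spread between the numbered libraries. The series text speaks of hippocampus of adult mice, whereas each sample label describes neurons made in culture, which was followed. Daam1 encodes a formin, a protein that assembles actin filaments, and gene-level counts do not resolve a microexon, so they were not used to check the genotype labels.

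Ptprv is a receptor-type protein tyrosine phosphatase known from osteoblasts and embryonic stem cells, and it has been described as a target of p53. Fap, fibroblast activation protein, is a serine protease on the surface of activated fibroblasts. The other 8 encode transcription factors: Nkx3-2 acts in cartilage of the axial skeleton, Msx1 and Msx2 act downstream of BMP signals in skull, tooth and limb, Prrx1 marks limb and craniofacial mesenchyme, Twist1 and Twist2 are basic helix-loop-helix factors of mesoderm and neural crest, Runx2 is the master factor of osteoblasts, and Tbx2 is a T-box repressor of heart and limb. Most of these factors are known from mesenchyme, the embryonic tissue that forms bone, cartilage and connective tissue.

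Library totals ran from 23253566 to 35012561 counts. Levels are given as CPM, which adjusts counts for library size by TMM factors, and levels between genes are compared only as the deposited cRPKM, a value per length. On the first principal component of the 15443 genes, which took up 74.3% of variance, 3 libraries lay highest, here said to stand apart. The KO inhibitor library of line 3 was at 163. The WT vehicle library of line 2 was at 68.1 and the WT inhibitor library of line 3 at 60.3. The next was the KO inhibitor library of line 1 at 1.41. At the low end, KO libraries that were kept lay about as far out as these WT libraries. Inhibitor line 2 was at -73.8 and vehicle lines 2 and 3 at -71.4 and -61.8. Genotype differences, their list medians and the likeness between genes are also given without 1 or all of the 3 highest libraries. The WT libraries among them held the most Ptprv and Fap, so leaving them out also lowers the WT level of these genes. All 10 markers of glutamatergic neurons were detected, with a summed level of 691 CPM in the KO inhibitor library of line 3 and 1791 to 2871 CPM in the others. Slc17a6, a vesicular glutamate transporter, was at 242 CPM or more in WT. Slc17a7 and Tbr1, which mark cortical glutamatergic neurons, went down to 0.599 and 0.718 CPM. GABAergic markers summed to between 220 and 666 CPM.

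Sequence before the start site is shown for Prrx1 and Msx1, whose levels were most alike among the homeodomain genes, and for Twist1, the most abundant of the 10 per length and the one that varied least over the 12 libraries. RefSeq promoter windows (GRCm38.p6) were matched for 7 of the 10 genes, and not for Ptprv, Fap and Tbx2. The stretch from 250 to 61 bases before the start site, 190 bases, is printed 5′ to 3′ on the gene's strand, with an E-box (CANNTG, the site of basic helix-loop-helix factors such as Twist1) in capitals.
Prrx1: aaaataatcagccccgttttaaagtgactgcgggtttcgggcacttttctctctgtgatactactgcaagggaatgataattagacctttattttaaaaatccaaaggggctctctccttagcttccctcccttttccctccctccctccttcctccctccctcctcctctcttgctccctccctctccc
Msx1: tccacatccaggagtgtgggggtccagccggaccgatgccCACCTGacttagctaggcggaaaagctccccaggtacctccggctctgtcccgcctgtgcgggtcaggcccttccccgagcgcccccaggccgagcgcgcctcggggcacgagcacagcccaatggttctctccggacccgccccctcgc
Twist1: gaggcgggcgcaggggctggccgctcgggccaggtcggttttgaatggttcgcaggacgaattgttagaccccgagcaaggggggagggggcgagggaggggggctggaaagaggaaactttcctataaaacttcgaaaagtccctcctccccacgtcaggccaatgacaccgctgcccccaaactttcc
The Prrx1 stretch lies at chr1:163313711-163313900 on the minus strand, with a GC content of 48.9% and 3 CpG. The Msx1 stretch lies at chr5:37824646-37824835 on the minus strand, with 70.5% GC and 16 CpG. The Twist1 stretch lies at chr12:33957421-33957610 on the plus strand, with 61.6% GC and 12 CpG. The median over 32851 windows of this length was 51.6% GC. An E-box was present in the Msx1 stretch and in neither of the others, read on both strands, and in 57.3% of all windows. The letters TAATTG, bound by Msx factors, and TGTGGT, bound by Runx factors, were in none of the 3 stretches, against 5.81% and 10.99% of all windows.

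Per length, Twist1 stood above the other 9 genes in every group. Its level was 6.24 ± 0.49 cRPKM in WT vehicle, 6.12 ± 0.40 in WT inhibitor, 5.55 ± 0.87 in KO vehicle and 4.64 ± 1.16 in KO inhibitor (mean ± SD, n = 3). Ptprv was next in WT, at 1.18 ± 0.81 cRPKM in vehicle and 1.39 ± 1.08 in inhibitor, and Fap followed at 0.693 ± 0.562 and 0.907 ± 0.990. In KO vehicle Ptprv stood at 0.170 ± 0.072 cRPKM, in position 4 of 10, and Fap was last at 0.0433 ± 0.0115. Below Twist1, the ranges of neighbours in the order overlapped or touched in WT vehicle, WT inhibitor and KO vehicle, so that order is not resolved. In KO inhibitor the exceptions were Tbx2 (0.19 to 0.20 cRPKM) above Nkx3-2 (0.13 to 0.15) and Ptprv (0.06 to 0.16) above Fap (0.02 to 0.05). Runx2 was between 0.02 and 0.22 cRPKM in every library.

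**Figure D1:**
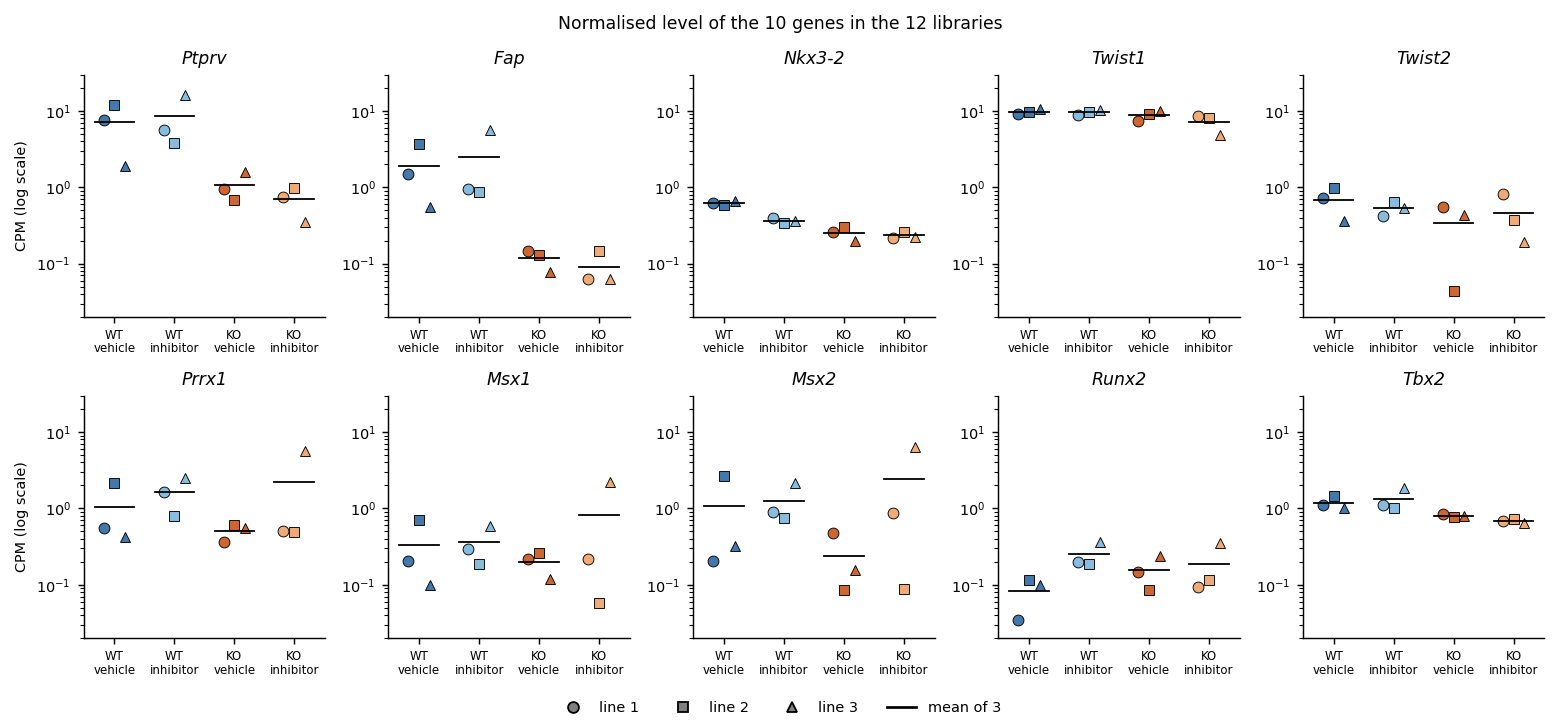
Level of each gene in the 12 libraries as CPM on a log axis, with groups along the x axis, symbols for the 3 cell lines and bars for group means. Ptprv, Fap, Nkx3-2 and Tbx2 lay lower in every KO library than in any WT library, and the triangle of the KO inhibitor library of line 3 is the highest point for Prrx1, Msx1 and Msx2.

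The phosphatase gene Ptprv (ENSMUSG00000097993, chromosome 1, 135108497 to 135132594, minus strand, GRCm38) was 8.79-fold lower in KO than in WT over line sums, the vehicle and inhibitor counts of a line added together. In WT vehicle its level was 7.64, 12.03 and 1.93 CPM (lines 1 to 3), and in KO vehicle 0.951, 0.692 and 1.57 CPM. In the inhibitor, WT lines held 5.59, 3.78 and 16.1 CPM and KO lines 0.750, 0.983 and 0.350 CPM. The highest KO library thus lay under the lowest WT library, which was vehicle line 3, while the 6 WT libraries spread over 8.34-fold among themselves. Averaged over both treatments the WT lines stood at 6.61, 7.91 and 8.99 CPM, against 0.851, 0.838 and 0.959 CPM in the KO lines. WT line 2 was highest in vehicle and lowest in inhibitor, and WT line 3 the reverse. Averages or sums over a line therefore hide this spread, and the SE over line sums does not contain it. On the log2 scale, KO minus WT came to -2.74 ± 0.77 in vehicle, -3.60 ± 0.80 in inhibitor and -3.14 ± 0.20 over line sums (± SE). Without the 3 libraries that stand apart the last value was -1.92 ± 0.48. In bulk RNA, fewer cells of a type and less RNA per cell cannot be told apart, here and in all that follows.

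Ptprv overlaps Gm10535, an antisense gene, within exons, but Gm10535 had 0 to 1 counts per library. Its neighbours Lgr6 (4 to 20 counts) and Ptpn7, whose start lies 106 bases away (1 to 9 counts), did not separate the genotypes. Among the 20 nearest protein-coding neighbours of the 10 genes, 0 lay lower in every KO library than in any WT library. Of all 15443 genes tested, 0.505% did, so 0 of 20 is near that share. Ferd3l was at 0 in all libraries, and Gcg, Mroh9, Cytl1 and Gm11444 had at most 4 counts, too few to separate. The receptor phosphatases most related to Ptprv were counted as a list of 5, of which 3 were tested. Ptpro, Ptprj and Ptprh, phosphatases of the same class, differed by -0.15 ± 0.19, -0.01 ± 0.11 and -0.30 ± 0.23 over line sums.

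The protease gene Fap (ENSMUSG00000000392, chromosome 2, 62500943 to 62574075, minus strand) showed the largest difference of the 10. WT vehicle lines held 1.48, 3.66 and 0.555 CPM and WT inhibitor lines 0.953, 0.861 and 5.58 CPM. KO vehicle lines held 0.146, 0.130 and 0.0784 CPM, and KO inhibitor lines 0.0625, 0.145 and 0.0636 CPM. These KO values are 2 to 5 counts per library, against 17 to 169 in WT. WT and KO did not overlap, and the WT libraries with most Fap, vehicle line 2 and inhibitor line 3, were those with most Ptprv. Summed, 375 WT counts stood against 18 KO counts, a WT to KO ratio of 20.98 with a 95% interval of 13.1 to 35.8 that covers counting error only (exact binomial). The fitted log2 difference was -3.95 ± 0.98 in vehicle, -4.70 ± 0.99 in inhibitor and -4.33 ± 0.48 over line sums, and -2.95 ± 0.41 without the 3 libraries. The 7 other prolyl peptidases related to Fap had a median difference of 0.02 over line sums, and Dpp4, its closest relative, which was named after its values were seen, was at -0.33 ± 0.96.

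Nkx3-2 (ENSMUSG00000049691, chromosome 5, 41761483 to 41764501, minus strand), a homeodomain factor of cartilage, was 1.99-fold lower in KO over line sums, from few counts. WT vehicle lines held 0.619, 0.584 and 0.653 CPM and KO vehicle lines 0.256, 0.303 and 0.196 CPM. With inhibitor, WT lines held 0.394, 0.337 and 0.364 CPM and KO lines 0.219, 0.260 and 0.223 CPM. The libraries of each group lay close together and the genotypes did not overlap, in contrast to the wide WT spread of Ptprv and Fap. The log2 difference was -1.29 ± 0.26 in vehicle, -0.63 ± 0.26 in inhibitor and -0.99 ± 0.23 over line sums, and without the 3 libraries that stand apart it was -1.03 ± 0.35. With 85 WT and 42 KO counts in all, counting error alone allows a WT to KO ratio from 1.39 to 3.02. In inhibitor alone, 32 against 23 counts allow 0.885 to 2.79, which includes no difference. Counting error alone gives an SE of 0.39 in each treatment and 0.27 over all libraries on the log2 scale, more than the SE of the fit.

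The genotypes overlapped for the other homeodomain genes. Prrx1 (ENSMUSG00000026586, chromosome 1, 163245119 to 163313710, minus strand) was at 0.551, 2.18 and 0.424 CPM in WT vehicle and 0.366, 0.606 and 0.549 CPM in KO vehicle. With inhibitor it was at 1.64, 0.786 and 2.48 CPM in WT and 0.500, 0.492 and 5.63 CPM in KO. The genotypes overlapped in both treatments, and the KO inhibitor library of line 3 was the highest of all 12. The log2 difference over line sums was 0.13 ± 0.82, -1.44 ± 0.26 without KO line 3 and -0.62 ± 0.36 without the 3 libraries. In inhibitor it was -1.72 ± 0.73 once the KO library of line 3 was left out.

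Msx1 (ENSMUSG00000048450, chromosome 5, 37820485 to 37824583, minus strand) was lower still, at 0.206, 0.701 and 0.0979 CPM in WT vehicle and 0.220, 0.260 and 0.118 CPM in KO vehicle. In inhibitor, WT lines held 0.296, 0.187 and 0.595 CPM and KO lines 0.219, 0.0578 and 2.19 CPM. The same KO library was 3.13-fold above the next. The difference over line sums was 0.67 ± 0.86, and -0.92 ± 0.41 without KO line 3. Without the 3 libraries that stand apart Msx1 did not pass the count filter.

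Msx2 (ENSMUSG00000021469, chromosome 13, 53466884 to 53473074, minus strand) was at 0.206, 2.65 and 0.326 CPM in WT vehicle and 0.476, 0.0865 and 0.157 CPM in KO vehicle. In inhibitor, WT lines held 0.887, 0.749 and 2.15 CPM and KO lines 0.875, 0.0867 and 6.43 CPM. The difference was -2.09 ± 1.44 in vehicle and 0.96 ± 1.30 in inhibitor, opposite signs with errors of similar size. Over line sums it was 0.37 ± 1.17, -1.54 ± 0.90 without KO line 3, and -0.70 ± 0.72 without the 3 libraries. For Prrx1, Msx1 and Msx2 the direction thus depended on the KO inhibitor library of line 3, and in vehicle Prrx1 (0.05 ± 1.07) and Msx1 (0.37 ± 1.37) were no longer lower in KO once WT vehicle line 2 was left out.

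Twist1 (ENSMUSG00000035799, chromosome 12, 33957671 to 33959829, plus strand) varied 2.14-fold from its lowest to its highest library. WT vehicle lines held 9.08, 9.66 and 10.5 CPM and KO vehicle lines 7.39, 9.17 and 10.0 CPM. WT inhibitor lines held 8.97, 9.58 and 10.3 CPM, and KO inhibitor lines 8.56, 8.10 and 4.90 CPM, the last being line 3. The genotypes overlapped in vehicle and not in inhibitor, where the KO libraries were all lower. The log2 difference was -0.14 ± 0.22 in vehicle, -0.42 ± 0.22 in inhibitor and -0.27 ± 0.14 over line sums, and -0.12 ± 0.13 without the 3 libraries.

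Twist2 (ENSMUSG00000007805, chromosome 1, 91801461 to 91848028, plus strand), its paralog, was at 0.723, 0.974 and 0.359 CPM in WT vehicle and 0.549, 0.0433 and 0.431 CPM in KO vehicle. In inhibitor it was at 0.427, 0.637 and 0.529 CPM in WT and 0.813, 0.376 and 0.191 CPM in KO. The genotypes overlapped in both treatments, and KO vehicle line 2 had 1 count. The difference over line sums was -0.53 ± 0.47, and -0.18 ± 0.42 without the 3 libraries, when that in inhibitor alone was 0.20 ± 0.75. Twist2 values are uncertain, since the antisense gene Gm29100 overlaps an exon with 13 to 42 counts per library and the sources used here do not say whether counting used the strand.

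Runx2 (ENSMUSG00000039153, chromosome 17, 44495987 to 44814797, minus strand), which drives osteoblast differentiation, was near the floor of 3 counts. WT vehicle libraries had 1, 3 and 3 counts and KO vehicle libraries 4, 2 and 6. With inhibitor, WT libraries had 6, 5 and 11 counts and KO libraries 3, 4 and 11. Summed over both treatments, 29 WT and 30 KO counts give a WT to KO ratio of 0.973 with a counting interval of 0.564 to 1.68, so a difference under that size was not detectable at this depth. The antisense gene Runx2os1 overlaps a Runx2 exon and had 0 to 6 counts, so Runx2 counts are uncertain in the same way as those of Twist2.

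The T-box gene Tbx2 (ENSMUSG00000000093, chromosome 11, 85832551 to 85841948, plus strand) was lower in KO by less, 1.67-fold over line sums. WT vehicle lines held 1.10, 1.44 and 1.01 CPM and KO vehicle lines 0.842, 0.779 and 0.784 CPM. In inhibitor, WT lines held 1.12, 1.01 and 1.85 CPM and KO lines 0.688, 0.723 and 0.636 CPM. The 6 KO libraries lay within a narrow band under all 6 WT libraries. The log2 difference was -0.56 ± 0.28 in vehicle, -0.96 ± 0.28 in inhibitor and -0.74 ± 0.20 over line sums, and -0.44 ± 0.20 without the 3 libraries.

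**Figure D2:**
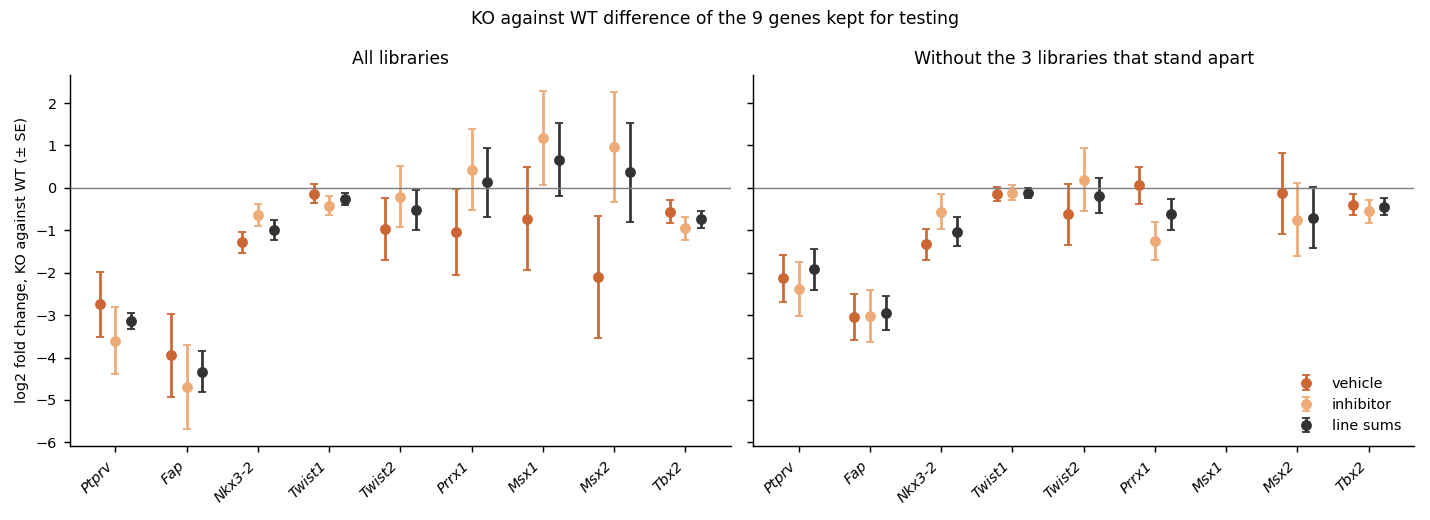
KO against WT log2 fold change (± SE, y axis) of the 9 genes kept for testing (x axis) in vehicle, in inhibitor and over line sums, with all libraries at left and without the 3 libraries that stand apart at right, where Msx1 was not kept. Ptprv, Fap, Nkx3-2 and Tbx2 stay under 0 in each setting, from -4.70 (Fap) to -0.39 (Tbx2). Twist1 also stays under 0, at -0.27 over line sums with all libraries. Prrx1, Msx1 and Msx2 change sign, and Twist2 does so in inhibitor without the 3 libraries (0.20).

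Counted over libraries, 4 of the 10 genes (Ptprv, Fap, Nkx3-2 and Tbx2) were lower in all 6 KO libraries than in any of the 6 WT libraries, and 0 were higher in all 6. Over the 15443 genes, 0.505% separated in the first way and 0.285% in the second. In vehicle alone the same 4 separated (4.9% of all genes), and in inhibitor these and Twist1 (7.03% of all genes). By the mean of each line, the same 5 lay lower in all 3 KO lines than in any WT line (4.79% of all genes). The share among the 10 is no evidence of its own, since 3 of them were chosen for this contrast. Treated KO set against untreated WT gave -3.36 ± 0.79 for Ptprv, -4.31 ± 0.99 for Fap, -1.39 ± 0.25 for Nkx3-2 and -0.79 ± 0.28 for Tbx2, where the same 5 genes separated (2.93% of all genes) and the WT vehicle libraries are those of the vehicle comparison. With edgeR's quasi-likelihood test, 0 of the 15443 genes (0%) and 0 of the 16090 genes over line sums were called in any KO against WT comparison at an adjusted p below 0.05, while 307 in vehicle, 540 in inhibitor, 426 over line sums and 389 for treated KO against untreated WT had an unadjusted p below 0.05. DESeq2 called 10 genes in vehicle (0.0463% of those it tested), 13 in inhibitor (0.0769%), 134 over line sums (0.661%) and 17 for treated KO against untreated WT (0.103%). Which of the 10 were among them is not given, since the set was chosen on this contrast. Calls over line sums, here and below, do not take in the spread between the vehicle and inhibitor library of a line.

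Levels of Ptprv, Fap and Tbx2 went together across the 12 libraries, and also without the 3 that stand apart. Those of Prrx1, Msx1 and Msx2 went together over the 12, but less so without these 3. How far the trios differed changed with the libraries left out. Fap was the gene among the other 9 most like Ptprv, with a Pearson r of 0.96 over the 12 libraries (log2 CPM), 0.93 without the 3 libraries that stand apart, 0.95 over the 6 WT libraries and 0.31 over the 6 KO libraries, where Fap had few counts. Tbx2 was most like Fap, with an r of 0.97 over 12, 0.95 without the 3, 0.95 over 6 WT and 0.68 over 6 KO libraries. Prrx1 and Msx1 were most like each other, with an r of 0.91 over 12, 0.94 over the 6 WT and 0.92 over the 6 KO libraries, but 0.48 without the 3. Msx2 was most like Msx1, at 0.87 over 12 and 0.50 without the 3. Between the trios, Ptprv and Msx1 had an r of 0.92 over the 6 WT libraries, -0.87 over the 6 KO libraries and 0.05 over all 12. Without the KO inhibitor library of line 3 alone, Ptprv had an r of 0.82 with Prrx1, 0.67 with Msx1 and 0.67 with Msx2, against 0.23, 0.05 and 0.20 over all 12, and without the 3 libraries 0.57, 0.22 and 0.30. Nkx3-2 was most like Fap (0.73), but over the 6 WT libraries this r was -0.16. The highest r over 12 libraries was 0.62 for Twist1 and 0.56 for Twist2, both with Ptprv, and 0.67 for Runx2, with Prrx1. An r over all 12 libraries, here and below, also takes in the difference between genotypes, on which Ptprv, Fap and Nkx3-2 were chosen. These libraries share 3 numbered lines per genotype and several of the genes have few counts, so the values are descriptions.

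Among the 13423 other genes with a mean of at least 1 CPM, the 5 most like Ptprv over the 12 libraries were Adamts2, Igfbp7, Aspn, Cpz and Ccn3. Adamts2, a protease that trims procollagen, had an r of 0.980, and its level was 1.11 to 4.53 CPM in WT and 0.445 to 0.706 CPM in KO. Igfbp7, a secreted binding protein, had an r of 0.980, at 3.75 to 20.4 CPM in WT and 1.15 to 3.88 CPM in KO, so these ranges overlap. Aspn, a small proteoglycan of cartilage and fibroblasts, had an r of 0.979, at 0.686 to 6.21 CPM against 0.159 to 0.431 CPM. Cpz, a carboxypeptidase, and Ccn3, a matricellular protein, followed at 0.971 and 0.966. The r over the 6 WT libraries was 0.98, 0.95, 0.96, 0.93 and 0.98 for the 5 in this order. Over the 6 KO libraries it was 0.80, 0.92, 0.78, 0.73 and 0.42.

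**Figure D3:**
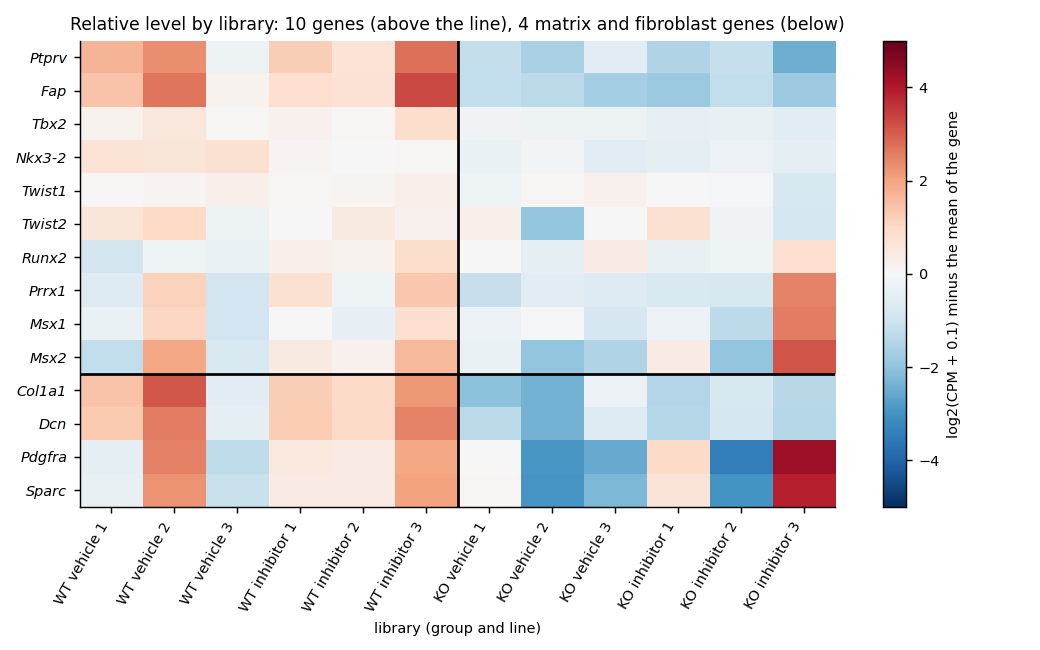
Level of the 10 genes, and of 4 genes of matrix and fibroblasts under the horizontal line, in the 12 libraries (columns, WT left and KO right of the vertical line), coloured by log2(CPM + 0.1) minus the mean of the gene. Ptprv, Fap, Col1a1 and Dcn are low in the KO inhibitor library of line 3, where Prrx1, Msx1, Msx2, Pdgfra and Sparc are at their highest.

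Most markers of fibroblasts were lower in KO, as Ptprv and Fap were. Their summed level over 12 markers was 125 to 1046 CPM in WT vehicle, 272 to 773 in WT inhibitor, 57.9 to 112 in KO vehicle and 94.4 to 635 in KO inhibitor, and 0 of the 12 were at 0 in all libraries. The median log2 difference of these markers was -2.37 in vehicle (12 of 12 lower), -2.26 in inhibitor (10 of 12) and -2.25 over line sums (10 of 12), where the medians of all genes were -0.01, 0.00 and 0.04 and the shares of all genes lower were 51.7%, 50.1% and 39.3%. Without the 3 libraries that stand apart the medians were -1.32, -1.77 and -1.27, with 10 of 11 lower in each. EdgeR called 0 of these markers, and DESeq2 called 1 in vehicle, 1 in inhibitor and 9 over line sums. Of all genes it tested, DESeq2 called 0.0463%, 0.0769% and 0.661% in this order. Col3a1, a fibrillar collagen, was 37.8 to 351 CPM in WT and 7.40 to 24.3 CPM in KO. Dcn, the proteoglycan decorin, was 5.26 to 44.2 CPM in WT and 1.39 to 4.71 CPM in KO. Over the 12 libraries its r with Ptprv was 0.96, which takes in the difference between genotypes. Dcn, Col3a1 and Col6a3 were the 3 of 12 in which the genotypes did not overlap, where 0.505% of all genes were lower in KO this way. The 2 markers that were not lower over line sums were Pdgfra, a receptor of fibroblasts and of glial progenitors, and Fbln1, a matrix glycoprotein. Over the 12 libraries the r of Pdgfra with Ptprv was 0.22. Pdgfra was at 509 CPM in the KO inhibitor library of line 3 and 2.28 to 50.5 CPM in the other KO libraries. Fbln1 was at 63.6 CPM in that library and 3.59 to 11.6 CPM in the other KO libraries. The part of fibroblast content in the difference of Ptprv, Fap, Nkx3-2 or Tbx2 was not tested.

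Sparc, a matrix protein of bone and many other cells, was at 10131 CPM in that same KO library, against 87.7 to 1083 CPM in the other KO libraries, and its r with Msx2 was 0.98 over the 12 libraries, with Ptprv 0.25. Col1a1, the main collagen of bone, was at 20.3 CPM there, within the 10.5 to 44.0 CPM of KO and under the WT median of 136 CPM. Smooth muscle and pericyte markers had a median log2 difference of -0.73 over line sums (7 of 8 lower), and -0.51 (6 of 8) without the 3 libraries. Their summed level was 8.23 to 108 CPM in WT vehicle, 5.62 to 12.4 in KO vehicle, 22.6 to 47.7 in WT inhibitor and 6.56 to 56.1 in KO inhibitor. Neural crest markers summed to 39.1 to 48.1 CPM in WT vehicle and 30.6 to 36.0 CPM in KO vehicle, but to 41.9 to 43.7 CPM in WT inhibitor and 27.1 to 48.3 CPM in KO inhibitor, and their median difference over line sums was -0.09 (4 of 7 lower). Skeletal muscle markers summed to at most 0.727 CPM in any library. Endothelial markers summed to 165 CPM in the KO inhibitor library of line 3 and to at most 66.0 CPM elsewhere, with Cldn5, a tight junction gene of these cells, at 0 in all 12 libraries. Their median log2 difference was -1.49 in vehicle (4 of 4 lower), 0.73 in inhibitor (1 of 4) and 0.09 over line sums (2 of 4). Without the 3 libraries it was -0.50 over line sums (3 of 4). Pecam1, 1 of these markers, was lower in every KO library than in any WT library, as were 0.505% of all genes. Progenitor markers (171 CPM) and astrocyte markers (1306 CPM) were also highest in the KO inhibitor library of line 3. The part of these cells in the high Prrx1, Msx1 and Msx2 was not tested.

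The wider set of mesenchymal and limb transcription factors had a median under 0 in KO. Of 35 such genes besides the 10, 24 were tested, and their median log2 difference was -0.98 in vehicle (22 of 24 lower), -0.37 in inhibitor (19 of 24 lower) and -0.49 over line sums (24 of 26 lower), against 51.7%, 50.1% and 39.3% of all genes lower. With the 3 libraries left out these medians were -0.43 (15 of 20), -0.31 (16 of 20) and -0.45 (15 of 20). EdgeR called 0 of them in any KO against WT comparison, and DESeq2 called 0 in vehicle, 0 in inhibitor and 5 over line sums (Snai2, Meox2, Alx1, Pax1 and Osr1). Over line sums DESeq2 called 0.661% of all genes it tested. The most abundant of the list were Zeb1 (-0.10 ± 0.17), Zeb2 (0.04 ± 0.19) and Mkx (-0.08 ± 0.17), which control mesenchymal states and tendon, and these differed little. Pax1, a factor of the sclerotome that acts with Nkx3-2 in the spine, was the 1 of the 24 whose genotypes did not overlap. Of all genes, 0.505% were lower in KO this way. Pax1 was at 0.860 to 1.28 CPM in WT and 0.191 to 0.745 CPM in KO (-1.17 ± 0.21 over line sums).

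Genes that the 10 regulate or act with showed smaller or mixed differences. Osteoblast genes had a median of -2.07 in vehicle, -0.21 in inhibitor and -0.08 over line sums, led by Col1a1 (-2.96 ± 0.40) and Col1a2 (-2.70 ± 0.41), both collagen chains, against Sparc (0.63 ± 1.29). Bglap and Ibsp, which encode osteocalcin and bone sialoprotein of mature osteoblasts, were at 0 in all 12 libraries. Chondrocyte genes had medians of -0.34, 0.76 and 0.51 in the same order, with Pth1r, the receptor of parathyroid hormone, at 372 CPM in the KO inhibitor library of line 3. Genes of BMP signalling, which acts above Msx1 and Msx2, had medians of -0.13, 0.19 and 0.15. Of the 20 tested, Bmp4 alone separated, as did 0.505% of all genes in this direction. Bmp4 was at 4.92 to 6.66 CPM in WT and 2.83 to 4.10 CPM in KO. Partners of the factors, among them Tcf12 and Tcf4 (which pair with Twist proteins) and Cbfb (which pairs with Runx proteins), had medians of -0.38, 0.42 and 0.15. The p53 targets, listed because Ptprv has been described as one, had medians of -0.32, 0.30 and 0.06. Over line sums without the 3 libraries, the medians were -0.66 for osteoblast genes, 0.10 for chondrocyte genes, 0.01 for BMP signalling, -0.16 for partners and -0.02 for p53 targets. In these 5 lists edgeR called 0 genes, and DESeq2 called Col1a1, Col1a2 and Bmp4, over line sums, where it called 0.661% of all genes it tested.

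**Figure D4:**
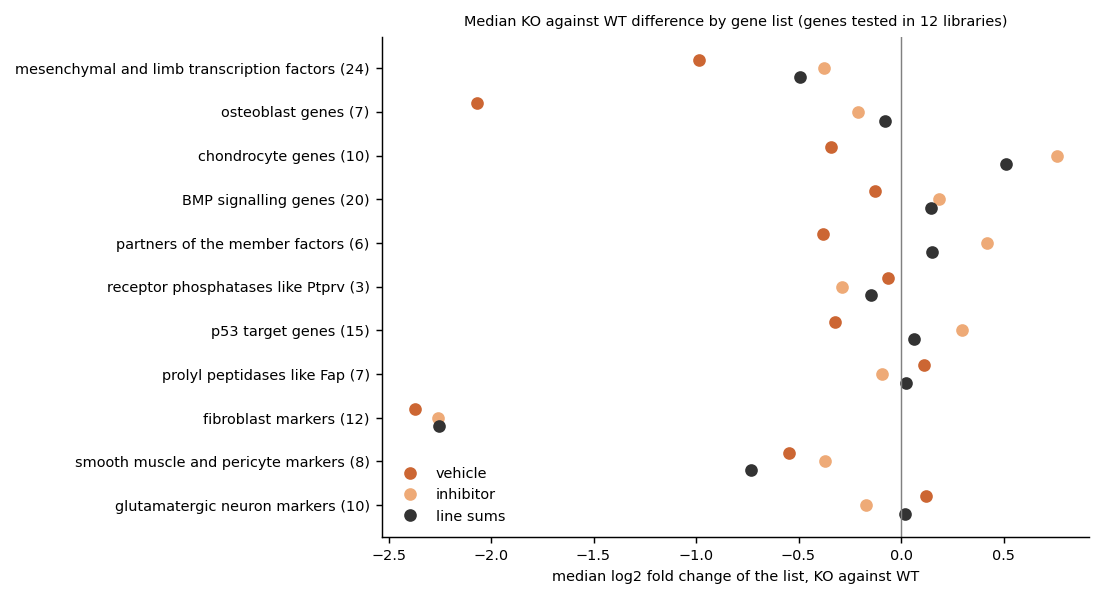
Median KO against WT log2 fold change (x axis) of each gene list (y axis, number of genes tested in the 12 libraries in brackets) in vehicle, in inhibitor and over line sums. Fibroblast markers lie near -2.3 throughout, whereas osteoblast, chondrocyte, BMP, partner and p53 lists shift between treatments.

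The response to the ROCK inhibitor was not used in choosing the genes, so it was tested. No gene was called by edgeR's quasi-likelihood test with Benjamini-Hochberg adjustment in WT, in KO, over both genotypes or for the interaction (0% of 15443 genes in each), with 47, 1088, 175 and 185 genes at an unadjusted p below 0.05, and DESeq2 also called 0. For the 10 genes, the lowest adjusted p in any of 728 values over all settings was 0.164.

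In WT the most regular difference was that of Nkx3-2, which was lower with inhibitor in line 1 (0.619 to 0.394 CPM), line 2 (0.584 to 0.337 CPM) and line 3 (0.653 to 0.364 CPM). The treatments did not overlap, as for 2.93% of all genes in this direction, and 6.9% of all genes were lower in all 3 WT lines. The log2 difference was -0.75 ± 0.25, with an unadjusted p of 0.0165 and an adjusted p of 1.00 (edgeR), so it did not pass. It rests on 53 vehicle and 32 inhibitor counts, a ratio of 0.590 with a counting interval of 0.368 to 0.932, and counting error alone gives an SE of 0.32. In KO, at 5 to 9 counts per library, 19 vehicle and 23 inhibitor counts give a ratio of 0.938 with a counting interval of 0.489 to 1.82. The fitted difference of Nkx3-2 in KO was -0.10 ± 0.26, and the interaction, which compares the responses of the genotypes, was 0.65 ± 0.36. Nkx3-2 passed the count filter through its WT libraries, so neither of these 2 values is read as a test.

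Ptprv and Fap went in opposite directions in different WT lines. Ptprv was 8.34-fold higher with inhibitor in WT line 3, and in lines 1 and 2 its inhibitor to vehicle ratio was 0.731 and 0.314. Fap was 10.1-fold higher in WT line 3, with ratios of 0.644 and 0.235 in lines 1 and 2. The average WT differences were 0.24 ± 0.71 for Ptprv and 0.38 ± 0.80 for Fap (edgeR adjusted p of 1.00 for each). In KO, Ptprv differed by -0.62 ± 0.75 (edgeR adjusted p of 0.616). For Fap, which passed the count filter through its WT libraries, the 2 to 5 counts of each KO library cannot show a response, and neither its difference in KO nor its interaction is read as a test.

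Prrx1, Msx1 and Msx2 had the largest fitted differences, in KO, and all 3 rest on line 3. Msx2 was 41.0-fold higher with inhibitor in KO line 3, with ratios of 1.84 and 1.00 in lines 1 and 2. Msx1 was 18.7-fold higher in KO line 3, with ratios of 0.996 and 0.223, and Prrx1 was 10.3-fold higher, with ratios of 1.37 and 0.811. The log2 differences were 3.31 ± 1.46 for Msx2, 2.03 ± 1.17 for Msx1 and 2.11 ± 1.02 for Prrx1. With the KO inhibitor library of line 3 left out, these differences were 0.95 ± 1.30, -0.52 ± 0.95 and -0.03 ± 0.74. The edgeR adjusted p with all libraries was 0.474 for Msx2 and 0.474 for Prrx1. Msx1 passed the count filter only through the 3 libraries that stand apart, so neither its difference in KO nor its interaction is read as a test. In WT these 3 genes were also higher in line 3 and lower in line 2, so the lines disagreed.

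The inhibitor to vehicle ratios of Twist1 in the 3 WT lines were 0.988, 0.992 and 0.987, a log2 difference of -0.02 ± 0.22 (edgeR adjusted p of 1.00). In KO its ratios were 1.16, 0.883 and 0.490, and the difference was -0.30 ± 0.22 (edgeR adjusted p of 0.517). Twist2 differed by -0.36 ± 0.71 in WT and 0.41 ± 0.73 in KO (edgeR adjusted p of 1.00 and 0.726). Tbx2 differed by 0.16 ± 0.28 in WT and -0.23 ± 0.28 in KO (edgeR adjusted p of 1.00 and 0.619). In KO its inhibitor libraries all lay under its vehicle libraries, as for 5.65% of all genes, and 16% of all genes were lower in all 3 KO lines. Runx2, outside the test, had 7 counts in WT vehicle and 22 in WT inhibitor, a ratio of 3.07 with a counting interval of 1.27 to 8.51, and the 3 inhibitor libraries lay above the 3 vehicle libraries, which were all at the floor. Of all genes tested, 3.04% separated this way. With Fap, Nkx3-2 and Msx1 left aside, the interaction of the genes tested had adjusted p from 0.808 to 0.823 (edgeR).

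**Figure D5:**
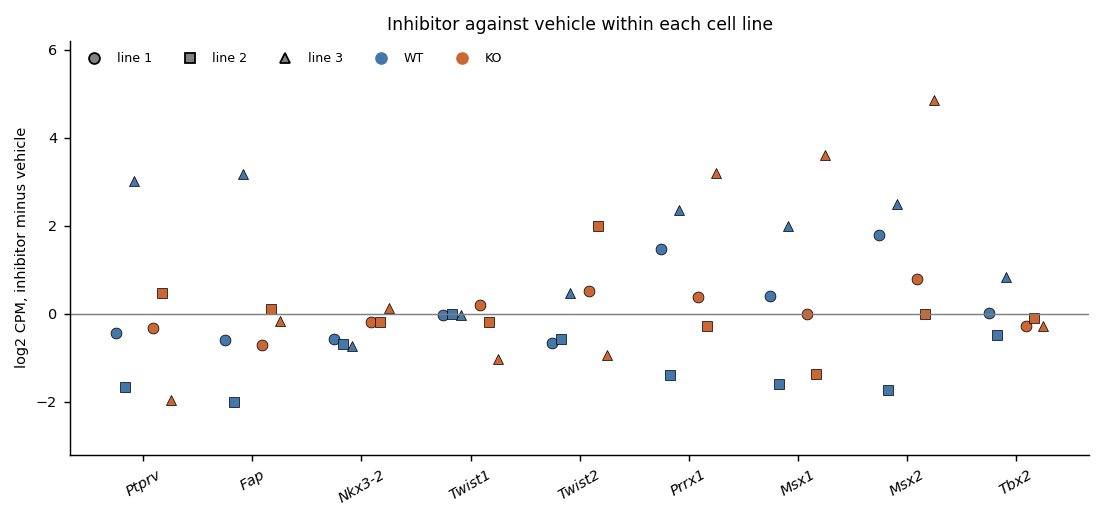
Inhibitor minus vehicle difference in log2 CPM (y axis) within each WT and KO cell line for the 9 genes kept for testing (x axis). Nkx3-2 in WT lies between -0.74 and -0.57 in the 3 lines, while line 3 carries the highest WT points of Ptprv and Fap and the highest KO points of Prrx1, Msx1 and Msx2.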

How the data were processed

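RNA was measured in 12 libraries, 4 groups of 3, whose groups were taken from the labels. The authors deposited for each library a table of 36902 genes with a whole-number read count and a cRPKM value (a form of RPKM whose correction is not explained in the labels). The count values are not normalized, and 3342 genes were NA. The genome build is mm10, per the submitters' processing notes, while aligner, annotation and strand use in counting are not given in the sources used here. Symbols were matched for 33371 of 33560 identifiers, and coordinates are those of GENCODE M21.

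The deposited counts were fitted with edgeR 4.0.16 in R 4.3.3 (TMM, filterByExpr, quasi-likelihood F test), with a coefficient per group over 15443 genes, or on the 2 summed libraries of each line for the genotype (16090 genes). P-values were adjusted over all genes by Benjamini-Hochberg and a gene was called below 0.05. The biological coefficient of variation was 0.411, and 0.360 over line sums. SEs were derived from each fold change and its F statistic. Intervals cover counting error only, since no molecular identifiers were used. Alternatives were other scalings, no filter, DESeq2 1.42.0, the cell line or the replicate number as a block, each library left out, and the 3 libraries that stand apart left out. The procedure was tested on simulated data.

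The 10 genes, the gene lists and the tests were chosen with earlier results of these data known. Named were the 10 genes, the 5 most like Ptprv, the closest other gene of each of the 10, up to 3 genes of a list by level (or those called, or at 0 throughout), and overlapping or neighbouring genes. Others were named after their values were seen (Dpp4, Col6a3, Dcn, Fbln1, Pax1, Bmp4, Pecam1, Slc17a6, Slc17a7 and Tbr1). Vehicle and inhibitor libraries were paired by the number in their titles, which was read as the cell line. Their deviations from group means correlated at 0.41, -0.55 and -0.72 (WT lines 1 to 3) and -0.19, 0.57 and -0.37 (KO lines). WT and KO libraries of the same number correlated in this way at 0.38, 0.65 and 0.80 in inhibitor and at -0.35, -0.65 and 0.17 in vehicle. The main fits used no block. Only in alternatives was the cell line a block (inhibitor comparisons and interaction) or the replicate number a block (all genotype comparisons). No call changed with either block.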

Additional observations from a re-analysis of the deposited data

How the results depend on the processing

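For the inhibitor comparisons and the interaction, 27 results were recomputed in 483 alternatives, of which 454 kept direction and side of the threshold and 29 changed direction, none past the threshold. Without the 3 libraries that stand apart, the inhibitor difference in WT was -0.040 for Ptprv, -0.18 for Fap and -0.012 for Tbx2, and that in KO was -0.013 for Prrx1. The interaction was then 0.023 for Fap, 0.025 for Twist1, -1.31 for Prrx1 and -0.62 for Msx2, and the cause was not tested. With each library left out in turn, the inhibitor difference in WT ran from -0.62 to 0.79 for Ptprv, -1.06 to 1.24 for Fap, -0.069 to 0.040 for Twist1, -0.44 to 1.20 for Msx1, -0.36 to 2.19 for Msx2 and -0.15 to 0.32 for Tbx2. In KO it ran from -0.25 to 0.044 for Nkx3-2, -0.28 to 0.92 for Twist2, -0.026 to 2.58 for Prrx1 and -0.52 to 2.57 for Msx1. The interaction ran from -1.59 to 0.69 for Fap, -0.68 to 1.93 for Prrx1 and -0.66 to 2.46 for Msx1. With the cell line as a replicate block, 0 genes were called in any of the inhibitor comparisons, and with the replicate number as a block 0 were called between genotypes.

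For the genotype, 0 genes were called with each library left out. DESeq2 called 10 genes in vehicle, 13 in inhibitor, 134 over line sums and 17 for treated KO against untreated WT. Without a filter 2 were called over line sums. Without the 3 libraries that stand apart, 2, 1, 2 and 1 were called in these 4 comparisons, where fewer samples enter. Ptprv, Fap, Nkx3-2, Twist1 and Tbx2 stayed lower in KO in all alternatives run for vehicle (18 each), inhibitor (18) and line sums (12). Fap, Nkx3-2, Msx1 and Runx2 rest on few counts, which limits their precision.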
